A study of Mus musculus with 6 samples.

Results

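The heat shock proteins and J-domain co-chaperones of ureteric bud (UB) cells were compared between Ash2l conditional knockout (cKO) and control mouse embryos. Members were taken by gene symbol alone, as every row of the count table named as an HSPA, HSPB, HSPD, HSPE, HSPH, HSP90, DNAJA, DNAJB or DNAJC gene with a number. This gave 69 of the 17189 genes in the table, of which 26 encode heat shock proteins and 43 encode J-domain proteins. All embryos carried the Hoxb7Cre-GFP transgene, which drives Cre recombinase and a green fluorescent reporter from the promoter of the UB gene Hoxb7, and received no treatment. The 3 control libraries came from Ash2l F/+ embryos, which have 1 floxed allele, and the 3 cKO libraries from Ash2l F/F embryos, in both cases as FACS-sorted UB cells at E16.5. The labels number the libraries of a group as biological replicates without saying whether 1 is a single embryo or a pool, and p-values rest on library-to-library spread alone, which may be technical.

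Chaperones hold unfolded proteins and help them reach their final shape. HSP70 proteins bind short hydrophobic stretches in a cycle driven by ATP, J-domain proteins deliver clients to HSP70 and speed up its ATP hydrolysis, and HSP90 acts later on near-native clients such as kinases and steroid receptors. Each compartment has its own set: HSPA8, HSPA1A and HSP90AB1 in the cytosol, HSPA5 and HSP90B1 in the endoplasmic reticulum (ER), HSPA9, HSPD1 and HSPE1 in mitochondria. Small heat shock proteins bind unfolding proteins without ATP. Heat shock factor 1 (HSF1) induces many cytosolic and mitochondrial members, and the unfolded protein response induces the ER members.

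Levels are given as CPM, counts scaled by library size, and differences as log2 fold changes of cKO over control. Of the 69 members, 60 passed the filter on low counts and were tested. The 9 others were Dnajb8, Dnajb13, Dnajc5b, Dnajc6, Hspa1l, Hspa12b, Hspb2, Hspb3 and Hspb7, none with more than 45 counts in any library. At an adjusted p under 0.05 in edgeR's quasi-likelihood test, 3 members rose in cKO cells (Hspb8, Hspb1 and Hspa2) and 5 fell (Hsp90ab1, Hspa8, Hsp90b1, Hspa1a and Dnaja4). Genes are termed called, risen or fallen by this test with 6 libraries unless another tool or fit is named. These 8 are 13.3% of the tested members, against 7.11% of the 13047 genes tested. By direction, 3.52% of all tested genes rose and 3.59% fell. Heat shock protein genes gave 7 of these calls among 21 tested (33.3%), and J-domain genes gave 1 among 39 (2.56%). Without cKO replicate 3, the library that lists many genes at 0, these shares were 9 of 22 (40.9%) and 9 of 39 (23.1%). In that fit 28.5% of all 13660 tested genes were called. The median log2 fold change was -0.05 over the tested members and -0.04 over all tested genes. Dnaja4 was the 1 tested member that passed the filter through 1 group only.

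**Figure D1:**
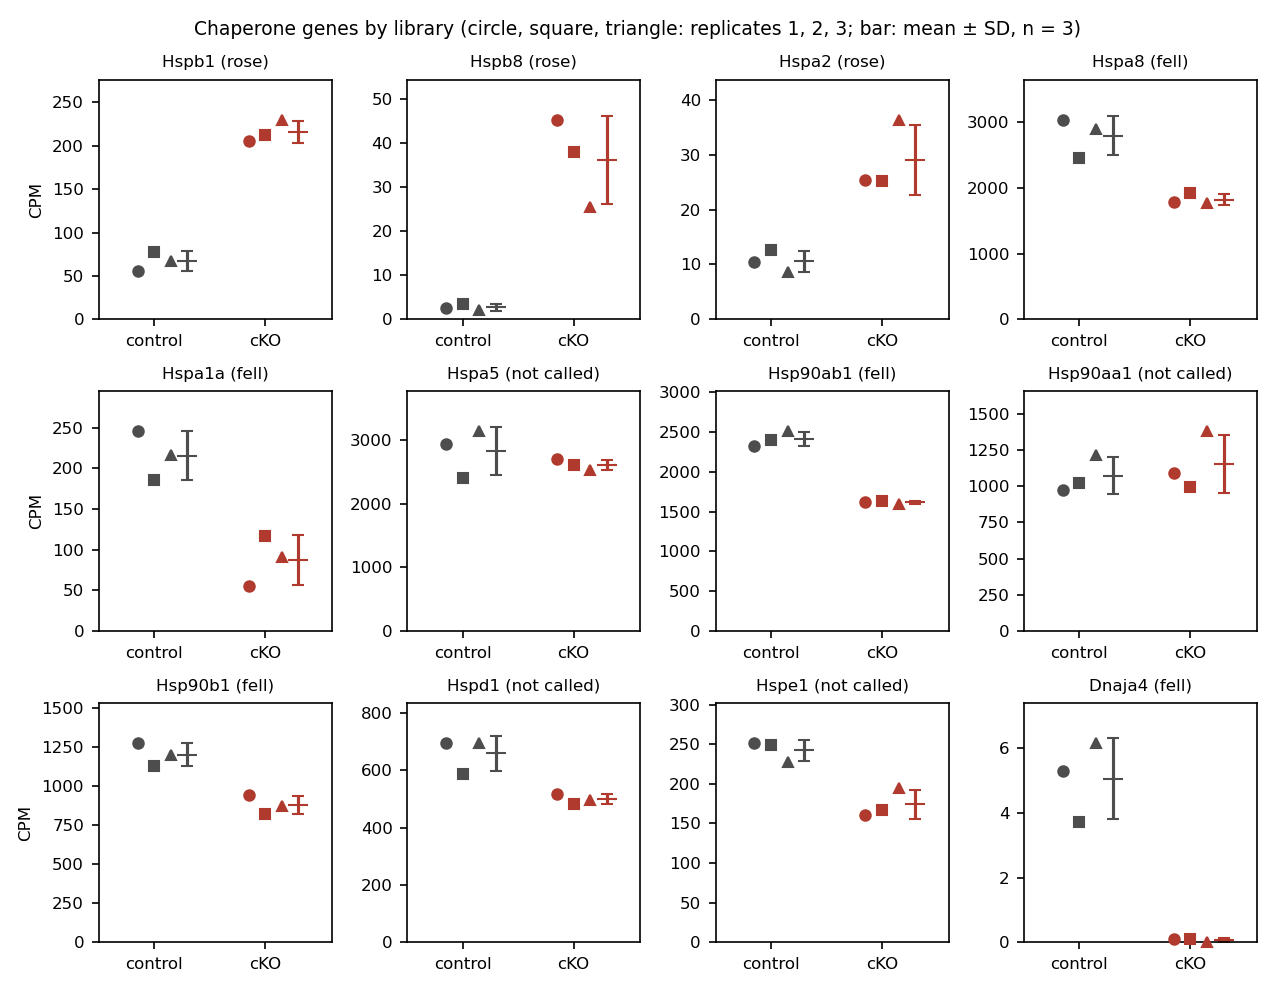
CPM of 12 chaperone genes in each of the 6 libraries, with every vertical axis starting at 0. Control libraries are grey and cKO libraries red, symbols mark the replicate numbers, and bars give mean ± SD (n = 3). Hspb1, Hspb8 and Hspa2 lie higher in every cKO library, while Hspa5 and Hsp90aa1 overlap between the groups.

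Upstream sequences are shown first for selected members: the small heat shock genes that rose most, Hspa1a, the mitochondrial pair and the ER pair. Of these, Hspd1, Hspe1 and Hspa5 were not called, while the called genes Hspa2 and Dnaja4 are not shown. They come from RefSeq on build GRCm38.p6, while the submitters' processing notes name GRCm39 for the counts, so the coordinates apply to the sequences only. Windows from 250 bases before to 50 bases after the start were found for 55 of the 69 members (72 windows). The 14 members with no window, which the motif counts do not cover, were Hspa8, Hspa9, Hspa13, Hspb2, Hsp90aa1, Hsp90ab1, Dnajc2, Dnajc5, Dnajc5b, Dnajc11, Dnajc12, Dnajc18, Dnajc22 and Dnajc30. Each line reads 5′ to 3′ on the strand of the gene and ends at the base before the start. Capitals mark matches to a pair of heat shock units (GAANNTTC or TTCNNGAA), to 3 alternating units in a row (GAA, TTC and GAA with NN between neighbours), or to the ER stress element (CCAAT, 9 bases of any kind, then CCACG), each searched on both strands. The 3-unit motif contains both 2-unit motifs.
Hspb1, chr5:135887669-135887918, plus strand: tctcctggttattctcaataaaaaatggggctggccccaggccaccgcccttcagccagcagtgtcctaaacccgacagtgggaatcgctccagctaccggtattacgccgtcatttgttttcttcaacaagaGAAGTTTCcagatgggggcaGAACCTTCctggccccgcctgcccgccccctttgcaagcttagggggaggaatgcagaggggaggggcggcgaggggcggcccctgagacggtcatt
Hspb8, chr5:116422865-116423114, minus strand: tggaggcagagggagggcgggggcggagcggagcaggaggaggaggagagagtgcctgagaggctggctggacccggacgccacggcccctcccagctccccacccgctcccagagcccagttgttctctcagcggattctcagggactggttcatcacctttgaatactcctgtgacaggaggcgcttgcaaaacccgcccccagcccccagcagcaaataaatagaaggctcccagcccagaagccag
Hspa1a, chr17:34972157-34972406, minus strand: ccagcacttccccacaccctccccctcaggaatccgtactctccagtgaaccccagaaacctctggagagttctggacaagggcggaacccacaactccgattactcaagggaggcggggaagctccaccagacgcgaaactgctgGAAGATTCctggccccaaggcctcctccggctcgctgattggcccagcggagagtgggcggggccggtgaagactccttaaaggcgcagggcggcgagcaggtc
Hspd1 and Hspe1, chr1:55087933-55088147, plus strand, between the starts: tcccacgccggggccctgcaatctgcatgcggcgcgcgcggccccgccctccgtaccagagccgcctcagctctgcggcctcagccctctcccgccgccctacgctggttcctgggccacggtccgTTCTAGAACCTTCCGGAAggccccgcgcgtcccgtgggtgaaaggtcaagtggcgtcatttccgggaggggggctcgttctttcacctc
Hspa5, chr2:34771840-34772089, plus strand: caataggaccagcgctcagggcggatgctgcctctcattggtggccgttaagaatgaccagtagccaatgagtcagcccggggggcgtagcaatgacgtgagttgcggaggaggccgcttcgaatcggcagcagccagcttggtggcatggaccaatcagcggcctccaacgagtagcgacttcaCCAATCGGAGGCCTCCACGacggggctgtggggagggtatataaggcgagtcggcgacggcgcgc
Hsp90b1, chr10:86705445-86705694, minus strand: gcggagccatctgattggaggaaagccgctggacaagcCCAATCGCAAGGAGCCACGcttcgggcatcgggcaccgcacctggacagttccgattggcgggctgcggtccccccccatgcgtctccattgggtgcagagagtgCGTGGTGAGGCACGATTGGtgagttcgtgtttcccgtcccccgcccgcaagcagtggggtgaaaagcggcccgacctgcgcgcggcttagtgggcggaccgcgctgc

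Hspb1 held 2 head-to-head pairs, at positions -117 to -110 and -97 to -90 from its start, and Hspa1a held 1 at -104 to -97. Hspb8 had no match upstream and 1 such pair at positions 3 to 10 after the start. Hspa2 had no match to the heat shock or ER stress motifs. Dnaja4 had none in 1 of its windows and head-to-head pairs at -90 to -83 and -52 to -45 in another. Among all 32851 windows of this length, 7.86% held GAANNTTC, and 15 of the 72 member windows did (13 genes, Hspb6 and Dnaja4 among them). The tail-to-tail pair TTCNNGAA was in 8.52% of all windows and in 8 of the members' windows. The 3-unit motif was in 0.603% of all windows and in 6 of the members' windows, those of Hspd1, Hspe1, Hsph1 and Dnajb6. Hspd1 and Hspe1 are transcribed away from each other, and the 215 bases between the start of Hspe1 and 1 of the 2 starts listed for Hspd1 hold 2 overlapping copies. The ER stress element was in 0.119% of all windows and in those of 3 members: Hspa5 held 1 copy, Hsp90b1 held 2 and Dnajc3 held 1. These matches are descriptions of letters, and binding was not measured.

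Small heat shock genes gave the largest rises. Hspb1 (HSP27), a small chaperone that also acts on actin filaments, was at 55.3, 78.0 and 67.8 CPM in control replicates 1, 2 and 3 and at 205, 213 and 230 CPM in the cKO replicates. All cKO libraries lay far above all controls, with means of 216 ± 12.6 and 67.0 ± 11.4 CPM (SD, n = 3). This 3.22-fold rise corresponded to a log2 fold change of 1.69 (SE 0.151, adjusted p = 0.00567 by edgeR). Hspb8 (HSP22), which works with the co-chaperone BAG3 in clearing misfolded proteins, was nearly silent in controls at 2.55, 3.52 and 2.05 CPM. It reached 45.3, 37.9 and 25.5 CPM in cKO, with the lowest cKO library still above every control. Its log2 fold change was 3.73 (SE 0.397, adjusted p = 0.00644), or 13.3-fold. Hspb1 and Hspb8 were the 2 members whose calls held without each library in turn, with highest adjusted p of 0.0432 and 0.0477.

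Hspb6 (HSP20), a small heat shock protein best known from muscle, averaged 17.2 ± 1.27 CPM in controls and was at 21.8, 24.0 and 65.8 CPM in cKO. The groups did not overlap, but cKO replicate 3 stood far above the other cKO libraries and the gene was not called (log2 fold change 1.11, SE 0.463, adjusted p = 0.214). Without that library the value was 0.40 (adjusted p = 0.209). Hspb11, which is also the intraflagellar transport protein IFT25, overlapped between groups (log2 fold change -0.05, SE 0.590). Of the 4 small heat shock genes tested, 2 rose, none fell and 2 were not called. The related crystallin gene Cryab, from another list, rose too, from 6.88 ± 1.03 to 29.9 ± 5.68 CPM (log2 fold change 2.12, SE 0.321, adjusted p = 0.0148). Its call was lost without each library except cKO replicate 3, with a highest adjusted p of 0.0863.

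Per transcript length, Hspb1 already ranked 17 among the 69 members in controls, and it was higher in cKO. In FPKM, the length-scaled level in the deposited table, its level was 73.1 ± 13.0 in controls and 242 ± 17.2 in cKO. The FPKM of Hspb1 was 0.0661 to 0.0901 of that of Hsp90ab1 in the control libraries and 0.351 to 0.401 of it in the cKO libraries. Hspb8 went from 1.47 ± 0.424 to 20.2 ± 5.29 FPKM.

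The most abundant HSP70 gene fell. Hspa8 encodes the constitutive cytosolic HSC70 and had the highest FPKM of all members in controls, at 1306 ± 130. It was at 3031, 2452 and 2898 CPM in controls and at 1778, 1921 and 1761 CPM in cKO, with no overlap. The log2 fold change was -0.62 (SE 0.102, adjusted p = 0.0195). The call was lost without control replicate 1 (adjusted p = 0.0712), control replicate 3 (0.0981), cKO replicate 1 (0.0671) or cKO replicate 2 (0.0688), while the fold change stayed between -0.56 and -0.71 in all 6 fits with 1 library left out.

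Hspa1a, the classic heat-inducible HSP70, was at 246, 186 and 217 CPM in controls and at 55.6, 117 and 90.6 CPM in cKO. Every cKO library was below every control, and the log2 fold change was -1.30 (SE 0.271, adjusted p = 0.0399). The call was lost without control replicate 1 (0.151), 2 (0.110) or 3 (0.146) and without cKO replicate 2 (0.0553). Its neighbour Hspa1b overlapped between the groups, at 57.1 to 124 CPM in controls and 40.9 to 84.8 CPM in cKO (log2 fold change -0.57, SE 0.358, adjusted p = 0.413). The coding sequences of the 2 genes are 99.4% identical in GENCODE M21, with 11 differing positions in the alignment, and their 250 upstream bases differ at 3 positions. Reads can therefore be split between them in ways the table does not show. Added together, they were at 243 to 369 CPM in controls and 96.5 to 175 CPM in cKO, without overlap, and the sum was not called (log2 fold change -1.04, SE 0.266, adjusted p = 0.0674). Without cKO replicate 3 the sum was called (-1.18, adjusted p = 0.0410). Summing the pair was chosen after the data were seen.

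Hspa2, an HSP70 best known for its role in spermatogenesis, rose from 10.5, 12.6 and 8.60 CPM to 25.3, 25.3 and 36.3 CPM. The groups did not overlap, and the log2 fold change was 1.46 (SE 0.314, adjusted p = 0.0428). This call was lost without any single library other than cKO replicate 3 (adjusted p between 0.0989 and 0.188) and when no filter on low counts was used (0.0513). Of 12 tested genes of the HSP70 and HSP110 families, 1 rose, 2 fell and 9 were not called, and 10 had a negative fold change. Those not called included the HSP110 nucleotide exchange factors Hspa4 (-0.26, SE 0.149), Hspa4l (0.59, SE 0.329) and Hsph1 (-0.29, SE 0.206). Hspa13, an HSP70-like protein of the ER, was at -0.25 (SE 0.183). Hspa1l was too low to test, with 2 to 45 counts.

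Of the 2 cytosolic HSP90 genes, Hsp90ab1 fell and Hsp90aa1 was not called, and the difference between their fold changes was not tested. Hsp90ab1, the constitutive isoform, was at 2323, 2405 and 2508 CPM in controls and at 1622, 1634 and 1589 CPM in cKO, a narrow band below all controls. Its log2 fold change was -0.58 (SE 0.0715, adjusted p = 0.00854), a 1.49-fold lower level in cKO. The call held in 5 of 6 fits with 1 library left out and was lost without control replicate 3 (adjusted p = 0.0612). Hsp90aa1, the stress-inducible isoform, was at 975, 1023 and 1217 CPM in controls and at 1090, 992 and 1380 CPM in cKO. These ranges overlapped and it was not called (0.11, SE 0.150, adjusted p = 0.744), with a value of -0.052 without cKO replicate 3 and -0.047 with library weights. Within each library, the FPKM of Hsp90aa1 was 0.369, 0.374 and 0.427 of that of Hsp90ab1 in controls and 0.591, 0.534 and 0.764 of it in cKO. A ratio of this kind shows unequal change and does not show which gene moved.

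In the ER, the HSP90 gene and the HSP70 gene differed in call. Hsp90b1, which encodes GRP94, was at 1276, 1131 and 1196 CPM in controls and at 940, 823 and 875 CPM in cKO, with every cKO library lower. The log2 fold change was -0.45 (SE 0.0894, adjusted p = 0.0341), and the call was lost without any single library other than cKO replicate 3 (adjusted p between 0.0624 and 0.145). Hspa5, which encodes BiP and is the main HSP70 of the ER, was at 2941, 2396 and 3132 CPM in controls and at 2691, 2607 and 2527 CPM in cKO. It overlapped between groups and was not called (-0.11, SE 0.112, adjusted p = 0.623). The difference between these 2 fold changes was not tested. The FPKM of Hspa8 was 1.11 to 1.24 times that of Hspa5 in the controls and 0.796 to 0.888 times in the cKO libraries, so the order of the top 2 members by FPKM differed between the groups.

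The mitochondrial chaperonin genes lay just outside the threshold with 6 libraries. Hspd1 (HSP60) was at 696, 589 and 694 CPM in controls and at 518, 483 and 496 CPM in cKO, and Hspe1, its co-chaperonin HSP10, was at 252, 249 and 228 CPM against 160, 167 and 195 CPM. In both genes every cKO library was below every control. The log2 fold change was -0.40 (SE 0.0957, adjusted p = 0.0553) for Hspd1 and -0.48 (SE 0.111, adjusted p = 0.0522) for Hspe1. Both were at an unadjusted p under 0.05, and DESeq2 called both (adjusted p = 0.00149 and 0.00577). Without cKO replicate 3 both fell (-0.41, adjusted p = 0.0129, and -0.58, adjusted p = 0.00114). Hspa9, the mitochondrial HSP70 mortalin, overlapped between groups (-0.09, SE 0.106, adjusted p = 0.692).

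**Figure D2:**
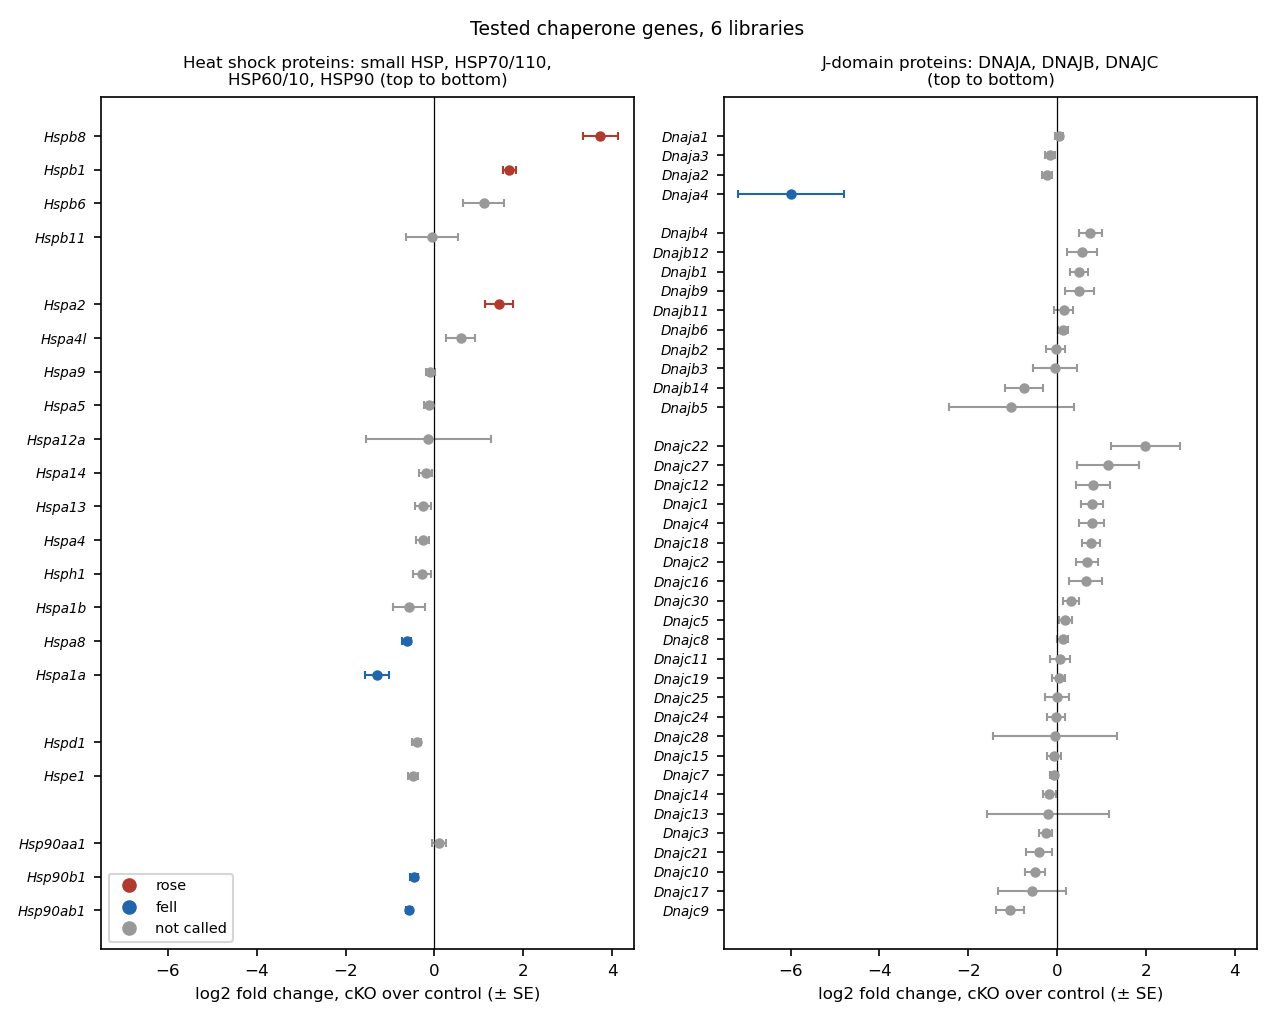
Log2 fold change (cKO over control) ± SE for the 60 tested members, from edgeR with 6 libraries, ordered within each family. Red points rose, blue points fell and grey points were not called. 7 of the 8 called genes are heat shock proteins in the left panel, and in the right panel Dnaja4 alone was called.

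Among J-domain genes, Dnaja4 alone was called. It encodes a type A co-chaperone of cytosolic HSP70 and had 54, 39 and 63 counts in controls against 1, 1 and 0 counts in cKO. The summed counts were 156 and 2, a 74.8-fold ratio of scaled levels with an exact 95% interval of 20.4 to 623 that covers counting error only. The adjusted p was 0.0339 in the 6-library test, and the call was lost without any single library other than cKO replicate 3 (0.103 to 0.177). Dnaja4 passed the filter on low counts through the control group only, so its call is given as a description. Dnaja1, Dnaja2 and Dnaja3, the other type A genes, were not called, with log2 fold changes of 0.047, -0.23 and -0.16. Per length, Dnaja4 was low in controls at 1.58 ± 0.372 FPKM, beside 140 ± 7.34 for Dnaja1, 78.5 ± 5.40 for Dnaja2 and 61.2 ± 2.54 for Dnaja3.

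None of the 10 tested DNAJB genes was called by edgeR (median log2 fold change 0.143), with 2 at an unadjusted p under 0.05, while DESeq2 called Dnajb4 alone. Dnajb1 (HSP40), the heat-inducible partner of HSPA1A, was at 310, 395 and 555 CPM in controls and at 584, 594 and 607 CPM in cKO. All cKO libraries were above all controls, but the controls were widely spread (log2 fold change 0.50, SE 0.202, adjusted p = 0.200). Dnajb4, a close relative of Dnajb1, was at 78.4, 111 and 114 CPM in controls and at 230, 153 and 126 CPM in cKO (0.75, SE 0.257, adjusted p = 0.141). The ER genes Dnajb9 (0.50, SE 0.330) and Dnajb11 (0.15, SE 0.206) were not called either. Dnajb14, an ER membrane member, was at 12.9 to 14.5 CPM in controls and 5.59 to 10.2 CPM in cKO (-0.74, SE 0.427).

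None of the 25 tested DNAJC genes was called by edgeR with 6 libraries, with 6 at an unadjusted p under 0.05, and DESeq2 called Dnajc18 (higher) and Dnajc9 (lower). Their fold changes had 13 positive and 12 negative signs around a median of 0.032, from -1.06 for Dnajc9 to 1.98 for Dnajc22. Dnajc9, a co-chaperone of histones H3 and H4, was at 282, 215 and 217 CPM in controls and at 154, 125 and 62.6 CPM in cKO, and cKO replicate 3 was the lowest (log2 fold change -1.06, SE 0.320, adjusted p = 0.103). Dnajc18 was at 25.4 to 27.1 CPM in controls and 37.4 to 49.4 CPM in cKO (0.77, SE 0.200, adjusted p = 0.0690). Dnajc12, a partner of aromatic amino acid hydroxylases, was at 13.4 to 18.1 CPM in controls and at 37.3, 28.8 and 15.5 CPM in cKO, so cKO replicate 3 fell within the control range (0.81, SE 0.380). Dnajc3, the ER co-chaperone of BiP known as p58IPK, overlapped between groups (-0.26, SE 0.156, adjusted p = 0.387). Dnajc27, a small GTPase with a J domain, was at 9.90 to 10.2 CPM in controls and at 7.87, 11.4 and 47.7 CPM in cKO.

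One library, cKO replicate 3, stood apart. It listed at 0 a total of 1453 genes out of the 11738 that exceeded 10 counts in all 5 remaining libraries, while the same measure gave at most 3 genes for any other library. Among the members this applied to 4 of 59: Dnajb5, Dnajc13, Dnajc28 and Hspa12a. None of the 4 was called with or without this library. Leaving this library out gave 18 called members of 61 tested (29.5%), 8 higher and 10 lower, against 28.5% of all tested genes (13.7% higher and 14.9% lower). The members' share was then close to that of all genes. The 8 calls of the 6-library test were all among the 18. The 10 others were Dnajb4 (0.91), Dnajc1 (0.53), Dnajc4 (0.84), Dnajc12 (1.08) and Dnajc18 (0.68), which rose, and Hspd1, Hspe1, Dnajb14 (-0.93), Dnajc3 (-0.44) and Dnajc9 (-0.78), which fell. Adjusted p was 0.00669 for Dnajb4, 0.00334 for Dnajc12, 0.0103 for Dnajc3 and 0.00118 for Dnajc9.

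**Figure D3:**
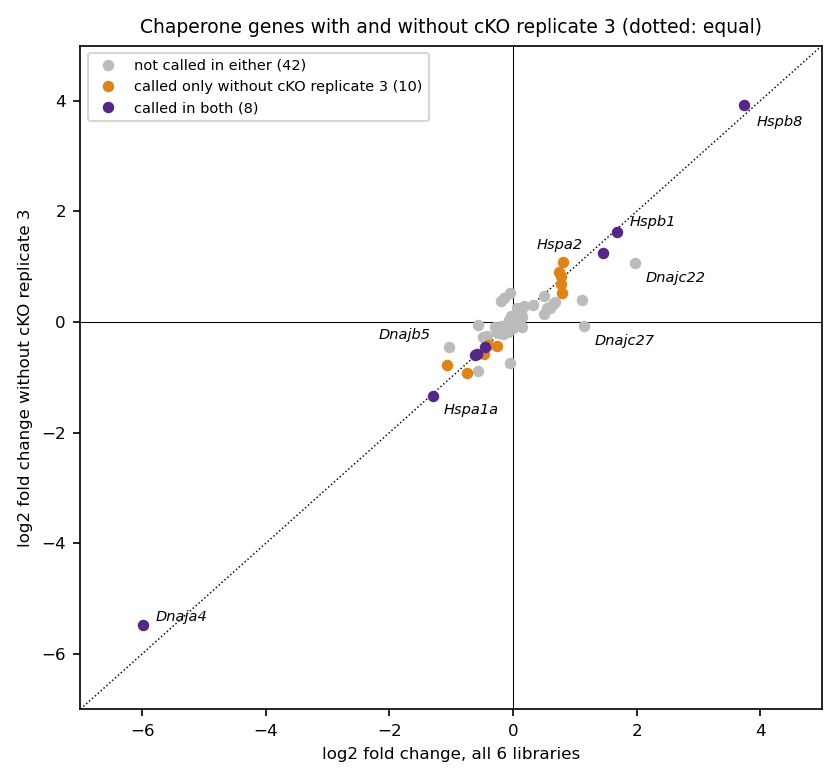
Log2 fold change of each tested member with all 6 libraries (horizontal) and without cKO replicate 3 (vertical); the dotted line marks equal values. Purple points were called in both fits (8), orange points only without that library (10) and grey points in neither (42). Dnajc27 moves from 1.15 to -0.07.

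Summed over all 69 members, chaperone transcripts made up 1.44% to 1.70% of the counts of a library. The sum was 16977, 15404 and 17477 CPM in controls and 14519, 14087 and 14371 CPM in cKO, so every cKO library was below every control. Most of the difference lay in the HSP70 and HSP110 families (7058 ± 760 CPM in controls and 5610 ± 122 CPM in cKO) and the HSP90 family (4685 ± 205 and 3649 ± 197 CPM). The DNAJB sum was higher in cKO, at 1209 to 1412 CPM against 859 to 1177 CPM, and the small heat shock sum was 280 to 338 CPM against 85.4 to 109 CPM. DNAJA and DNAJC sums overlapped between groups. In bulk samples fewer cells with a transcript and less of it per cell cannot be told apart. Over single genes, 24 of the 60 tested members had groups that did not overlap (13 with cKO above and 11 with cKO below). Among all tested genes 37.4% did not overlap, 16.7% with cKO above and 20.7% with cKO below.

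Other genes of the chaperone network are given from lists chosen by function. Of 4 tested HSF regulators, Hsbp1, which encodes a protein that binds HSF1 and limits its activity, rose from 229 ± 13.7 to 306 ± 19.0 CPM (log2 fold change 0.42, SE 0.0953, adjusted p = 0.0488). Hsf1 itself was at 117 to 126 CPM in controls and 131, 148 and 216 CPM in cKO (0.43, SE 0.194, adjusted p = 0.245), and Hsf2 was not called (-0.08, SE 0.277). Of 28 co-chaperones of HSP70 and HSP90, edgeR called 1 as fallen (median -0.054), or 3.57%, against 7.11% of all tested genes. DESeq2, which called more genes than edgeR in total, called 1 as risen and 5 as fallen. The gene that fell was Ptges3, which encodes the HSP90 co-chaperone p23, at 242 ± 21.5 CPM in controls and 173 ± 4.13 CPM in cKO (-0.49, SE 0.101, adjusted p = 0.0391). The HSP90 partners Fkbp4 (-0.42, SE 0.110, adjusted p = 0.0730) and Nudc (-0.35, SE 0.0927, adjusted p = 0.0738) lay below all controls in every cKO library and were not called by edgeR, while DESeq2 called both (adjusted p = 0.00227 and 0.0135). Without cKO replicate 3, 1 co-chaperone rose and 6 of the 28 fell, Ptges3, Fkbp4 and Nudc among them. These calls were 25% of the list, against 28.5% of all tested genes in that fit. The calls of Hsbp1 and Ptges3 were lost without any single library other than cKO replicate 3 (highest adjusted p 0.210 and 0.174).

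Bag3, the partner of HSPB8, was named after its values were seen. It was at 13.6, 19.3 and 20.7 CPM in controls and at 7.56, 5.59 and 1.40 CPM in cKO, so it lay below all controls while Hspb8 lay above them. With 6 libraries DESeq2 called it and edgeR did not (-1.88, SE 0.665, adjusted p = 0.150). By edgeR it fell by 1.45 without cKO replicate 3 (adjusted p = 0.00369).

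None of the 15 subunits of the chaperonin TRiC and of prefoldin, which fold actin and tubulin, was called with 6 libraries by edgeR or DESeq2 or had an unadjusted p under 0.05 (median 0.042), and 1 (Cct6a) fell without cKO replicate 3. The 3 with the smallest p were Cct7 (-0.15, SE 0.0791), Pfdn2 (0.25, SE 0.130) and Pfdn4 (0.28, SE 0.165). None of 11 mitochondrial proteostasis genes was called by edgeR with 6 libraries (median 0.111), 2 had an unadjusted p under 0.05 and DESeq2 called Afg3l2 alone. Without cKO replicate 3, edgeR called 3 of the 11 as risen (Afg3l2, Clpb and Grpel1), or 27.3%. In that fit 28.5% of all tested genes were called, 13.7% as risen. The smallest p with 6 libraries were those of Afg3l2 (0.39, SE 0.102, adjusted p = 0.0690), Hscb (0.82, SE 0.285) and Grpel2, a nucleotide exchange factor of mortalin (-0.42, SE 0.203). Of 24 genes of ER folding and ER stress, edgeR called 1 as risen and 1 as fallen (median -0.023), or 8.33%, against 7.11% of all tested genes. DESeq2, which called more genes in total, called 3 as risen and 1 as fallen. In the fit without cKO replicate 3, edgeR called 3 as risen and 2 as fallen (20.8%, against 28.5% of all tested genes). Xbp1, a transcription factor that raises ER folding capacity, fell from 390 ± 33.0 to 218 ± 24.5 CPM (-0.84, SE 0.119, adjusted p = 0.0128). Asns, an asparagine synthetase gene induced by ATF4, rose from 59.9 ± 3.69 to 136 ± 27.3 CPM (1.18, SE 0.171, adjusted p = 0.0133). The call of Xbp1 was lost without control replicate 1 (adjusted p = 0.0645) or 3 (0.0692), and that of Asns without control replicate 1 (0.0705), 2 (0.0802) or 3 (0.0803). Ddit3, the ER stress factor CHOP, was not called by edgeR with 6 libraries (0.74, SE 0.227, adjusted p = 0.109). It was called by DESeq2 (adjusted p = 0.0441) and by edgeR without cKO replicate 3 (0.0275).

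**Figure D4:**
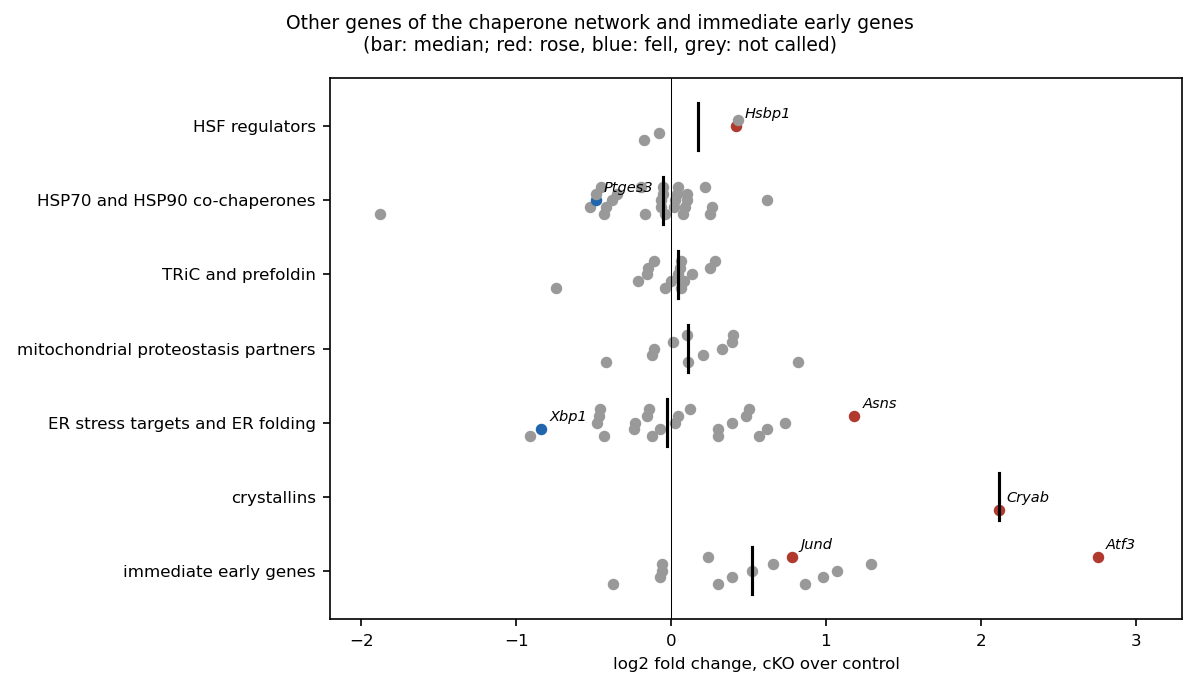
Log2 fold change (cKO over control, 6 libraries) of the tested genes in 7 lists, with 1 point per gene and a black bar at each list's median. Red points rose, blue points fell and grey points were not called; called genes are named.

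Tissue handling before sorting can itself induce immediate early genes and heat-inducible chaperones, so the former were measured beside the latter. The summed level of 15 immediate early genes was 8235, 15981 and 17532 CPM in control replicates 1, 2 and 3 and 20850, 17462 and 18010.5 CPM in cKO. Control replicate 1 was the lowest library in this sum and also in Dnajb1, while it was the highest of all libraries in Hspa1a and Hspa1b. Of the 15 genes, Jund (0.78, SE 0.163, adjusted p = 0.0398) and Atf3 (2.76, SE 0.511, adjusted p = 0.0282) rose by edgeR and 13 were not called. These calls are 13.3% of the list, against 7.11% of all tested genes called and 3.52% risen. DESeq2, which called more genes than edgeR in total, called 5 as risen: Atf3, Jund, Ier2, Nr4a1 and Dusp1 (1.29, adjusted p = 0.000398, against 0.0765 by edgeR). With 1 library left out, Jund was called only without cKO replicate 3 (highest adjusted p otherwise 0.153) and Atf3 only without control replicate 1 (highest otherwise 0.101). Without cKO replicate 3, Jund was the 1 gene of the 15 that rose (6.67%, against 13.7% of all tested genes in that fit). Atf3 was then at an adjusted p of 0.0819 by edgeR. The part of handling in the chaperone differences was not tested.

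The labels were checked on Ash2l and on markers. Ash2l fell from 175 ± 15.6 to 32.4 ± 12.6 CPM, lower in all cKO libraries (edgeR adjusted p = 0.00786). Library totals ranged from 9620235 to 10538314 counts. All 15 markers of ureteric epithelium were tested. Of these, 6 fell by edgeR (40%, against 3.59% of all tested genes), 10 by DESeq2 and 9 by edgeR without cKO replicate 3 (60%, against 14.9%). Their summed level was 11529 to 12962 CPM in controls and 6613 to 7711 CPM in cKO. Markers of other cells were far lower: 149 to 185 CPM in controls and 251 to 355 CPM in cKO for nephron epithelium and podocytes (14 genes, 2 of 7 tested rose), where Nphs1 was at 0 in all controls. Most of this nephron sum was Jag1 (81.6 to 123 CPM in controls and 147 to 271 CPM in cKO) and Lhx1. Lhx1 (44.5 to 48.1 and 11.0 to 29.8 CPM) is also in the ureteric list and counts in both sums. For stroma and muscle (9 genes, 1 of 5 tested rose) the sums were 12.8 to 24.9 and 66.7 to 72.0 CPM. The genes behind these sums differed between libraries. Ren1 was at 1.28, 12.9 and 0 CPM in controls and at 0.511, 21.0 and 22.8 CPM in cKO. Myh11 was at 13.9 CPM in cKO replicate 3 and at no more than 0.613 CPM elsewhere. Acta2, smooth muscle actin, was the gene that rose, from 3.71 ± 1.95 to 40.1 ± 14.3 CPM (log2 fold change 3.43, adjusted p = 0.0186), a call lost without any single library other than cKO replicate 3 (highest 0.0827). Foxd1, a stromal marker, was at 0 in 2 control and all cKO libraries. For endothelium (7 genes, 2 tested) the sums were 52.2 to 58.7 and 20.5 to 30.8 CPM, and nearly all of the control sum was Egfl7, which fell from 53.3 ± 5.18 to 14.8 ± 2.06 CPM (called in 4 of 6 fits with 1 library left out, highest adjusted p 0.0582). The endothelial genes Cdh5, with at most 2 counts, and Pecam1, with at most 11, were near 0 in every library, and Tie1 was at 18.3 CPM in cKO replicate 3 alone and at no more than 14 counts elsewhere. Kdr and Emcn had at most 26 and 14 counts. Tek was at 0, 6 and 0 counts in controls and at 29, 29 and 0 in cKO. It was too low to test with 6 libraries and rose by edgeR without cKO replicate 3 (3.85, adjusted p = 0.0249). Immune and blood markers (10 genes, none of 6 called by edgeR or DESeq2 and 0 at an unadjusted p under 0.05) summed to 42.3, 55.4 and 438 CPM in control replicates 1, 2 and 3 and to 59.2 to 96.8 CPM in cKO. The high value of control replicate 3 came from the globin genes Hba-a1 (253 CPM) and Hbb-bs (94.4 CPM). Their part in the chaperone differences was not tested. The Y-linked genes Ddx3y and Eif2s3y had 392 to 1044 and 439 to 815 counts in the controls. Ddx3y was at 0 in every cKO library, and Eif2s3y was at 0 in cKO replicates 1 and 2 and at 504 counts in replicate 3, the library that lists many genes at 0. In the comparison without cKO replicate 3, the sex of the embryos and the genotype therefore cannot be told apart, and with 6 libraries they are separated by that library at most.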

How the data were processed

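RNA sequencing of 6 libraries was analysed from 2 tables that the authors deposited. The first holds raw read counts per gene and the second FPKM values, which the authors derived and which equal the counts times 1 factor per gene and 1 per library (largest relative deviation 2.35e-09 over 8821 genes). The submitters' processing notes list HISAT2, HTSeq, Cufflinks, DESeq and GRCm39, and give no version or role for any. The sources used here do not state how reads matching several gene copies, such as processed pseudogenes, were counted, nor whether strand was used. Per the labels' protocols the libraries were made with a stranded mRNA kit.

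Counts were tested with edgeR 4.0.16 in R 4.3.3: filterByExpr (13047 genes), TMM factors, robust quasi-likelihood F-test with group as the only term, and Benjamini-Hochberg adjustment over all genes tested, called at 0.05. The SE was taken as |log2 fold change| over the root of F. CPM values use TMM-scaled library sizes, and 3 counts correspond to 0.285 to 0.307 CPM. The steps were tested on simulated data. Alternatives used DESeq2 1.42.0, limma 3.58.1, other filters and factors, a replicate block and each library left out.

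Named genes were 23 members fixed by name, every called member, the 10 members with the smallest p among those called without cKO replicate 3, Ash2l, and up to 3 genes with the smallest p from each list. Other members are named to account for the whole group. Members and lists were chosen with earlier results of these data known.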

Additional observations from a re-analysis of the deposited data

How the results depend on the processing

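With 1 library left out at a time, called genes ranged from 121 to 3897 and called members from 2 to 18, and fewer were called than with 6 libraries except without cKO replicate 3. DESeq2 called 2172 genes and 13 members (the 8 with Hspd1, Hspe1, Dnajb4, Dnajc9 and Dnajc18), limma with library weights 3337 genes and 17 members (cKO replicate 3 had a weight of 0.0685), and log2(FPKM + 1) 1405 genes and 10 members. In these runs the count over all genes rose along with that of members. The larger member counts are therefore no result about members in particular. With the replicate number as a block, 23 genes and 0 members were called by edgeR (15 members at an unadjusted p under 0.05), and Hspb1 was at an adjusted p of 0.0501; the block leaves fewer residual degrees of freedom, and same-numbered libraries did not deviate together (correlations across genes of -0.022, 0.025 and -0.001), so the numbers were not taken as pairs. Among the genes named by the rule above, signs changed for Hsp90aa1 and Hsf2. Hsp90aa1 went to -0.047 with library weights and to between -0.052 and 0.202 over the fits with 1 library left out (negative without cKO replicate 3). Hsf2 went to between -0.17 and 0.057 over such fits (positive without control replicate 3). Neither gene was called in these. Signs of the remaining members were not followed over every run. Several changed without cKO replicate 3, such as Dnajc27 (1.15 to -0.07), Dnajb11 (0.15 to -0.09) and Dnajc13 (-0.20 to 0.38). The direction of all 8 called members was the same in every alternative run. DESeq2, RLE factors, a filter of at least 1 CPM in 3 libraries, both FPKM scales and library weights called all 8. At these library sizes that filter is nearly the same as the main one, so it is a weak check. Without a filter Hspa2 was lost. The counting floor limits statements on Dnaja4, with 2 counts over the cKO libraries.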
